A study of Homo sapiens with 4 samples.

Results

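The regions described here are stretches of open chromatin at the transcription starts of protein-coding genes in A375, a long-established line of human melanoma cells. They were taken from the table the authors deposited for an ATAC-seq experiment, a method whose Tn5 transposase inserts adapters where DNA is accessible. A region was kept when it overlapped the window from 1 kb before to 1 kb after a gene's start, taken as the outer end of the RefSeq gene on its own strand. This rule gave 10411 start regions among 125986 regions in the whole table, 125985 of which were nuclear. Strand was known here for 15842 of 20037 protein-coding genes. The remaining 4195, among them the 715 of chromosome 8, gave no start window here. Regions at their starts therefore count among the other nuclear regions, unless they also lie at a start that was used. All cells were A375 in serum-containing medium. Octanoate, a fatty acid of medium chain length, was given at 1 mM for 48 h to one group (2 libraries), and isopropanol, its vehicle, for the same time to the other (2 libraries). The labels name no separate cultures, so the p-values measure the spread between these libraries, which may be technical. The table holds no value for a single library, so each region is given by its mean normalized read count over the 4 libraries (the mean signal) and by the authors' log2 fold change of octanoate over vehicle with its standard error (SE). The labels give only an average depth, so the depth of each library is unknown.

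A promoter is the stretch around a transcription start where RNA polymerase II and the general transcription factors assemble. Active promoters keep a nucleosome-depleted gap that the transposase can enter, and most promoters of widely expressed genes lie in CpG islands, which are rich in G, C and the CpG dinucleotide. Accessibility at a promoter often stays high over a wide span of transcription rates, while distal elements vary more between cell states.

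Sequence upstream of 6 starts is shown first, because these promoters stand for the results that follow. PEX10, DESI2, CHCHD2, HSPB8 and ING1 had regions past the threshold of an adjusted p under 0.05, and CWC22 had the lowest log2 fold change of the tested start regions. Each line gives the 250 bases before the start from the RefSeq promoter table (GRCh38.p14), read 5′ to 3′ on the gene's strand. Capitals mark a CCAAT box (CCAAT), a GC box (GGGCGG, the core bound by SP family factors) or an ETS core (CCGGAAG), each searched on both strands.
PEX10 (chr1:2413828-2414077, minus strand): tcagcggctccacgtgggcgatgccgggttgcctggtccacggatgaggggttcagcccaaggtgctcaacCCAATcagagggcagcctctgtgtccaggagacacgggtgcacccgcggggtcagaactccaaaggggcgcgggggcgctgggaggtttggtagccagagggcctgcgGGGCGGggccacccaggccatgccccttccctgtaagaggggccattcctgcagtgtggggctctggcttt
DESI2 (chr1:244652876-244653125, plus strand): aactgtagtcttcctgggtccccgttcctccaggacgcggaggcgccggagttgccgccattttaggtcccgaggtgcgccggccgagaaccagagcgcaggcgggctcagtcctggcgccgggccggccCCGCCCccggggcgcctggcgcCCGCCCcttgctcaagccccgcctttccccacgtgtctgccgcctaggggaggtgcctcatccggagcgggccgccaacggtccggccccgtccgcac
CHCHD2 (chr7:56106477-56106726, minus strand): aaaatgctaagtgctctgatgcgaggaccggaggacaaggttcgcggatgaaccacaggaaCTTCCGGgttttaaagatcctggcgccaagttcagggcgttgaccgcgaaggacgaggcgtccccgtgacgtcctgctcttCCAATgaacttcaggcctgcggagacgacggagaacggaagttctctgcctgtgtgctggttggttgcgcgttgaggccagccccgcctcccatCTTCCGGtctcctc
HSPB8 (chr12:119178681-119178930, plus strand): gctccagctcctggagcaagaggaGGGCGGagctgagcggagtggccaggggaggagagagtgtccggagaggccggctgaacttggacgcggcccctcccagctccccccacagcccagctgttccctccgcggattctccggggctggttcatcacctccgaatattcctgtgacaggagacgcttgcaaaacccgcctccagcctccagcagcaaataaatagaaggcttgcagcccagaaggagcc
ING1 (chr13:110712373-110712622, plus strand): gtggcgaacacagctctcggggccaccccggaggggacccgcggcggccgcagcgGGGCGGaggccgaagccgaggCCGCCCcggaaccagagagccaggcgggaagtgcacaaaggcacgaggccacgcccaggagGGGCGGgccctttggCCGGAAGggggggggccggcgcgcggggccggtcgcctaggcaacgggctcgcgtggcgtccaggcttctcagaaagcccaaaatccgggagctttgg
CWC22 (chr2:180007298-180007547, minus strand): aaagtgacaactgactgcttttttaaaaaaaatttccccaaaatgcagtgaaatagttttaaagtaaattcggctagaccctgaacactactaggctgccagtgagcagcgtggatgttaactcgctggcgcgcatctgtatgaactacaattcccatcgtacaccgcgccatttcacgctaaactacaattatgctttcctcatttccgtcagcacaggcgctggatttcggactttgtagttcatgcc
The upstream stretch of ING1 held 3 GC boxes and 1 ETS core, that of CHCHD2 held 2 ETS cores and 1 CCAAT box, and that of CWC22 held none of these letters. The stretches of PEX10 and HSPB8 were rich in G and C (67.6% and 63.6%) but held few CpG dinucleotides (13 and 12), against 30 in that of DESI2. The CWC22 stretch was 44.0% G and C, with 12 CpG.

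Of the 15842 genes with a strand, 11403 (72.0%) had at least 1 region within 1 kb of the start, and for 10310 genes the start base itself lay in a region. Start regions were wide and strong. Their median width was 1172 bp against 416 bp for the other 115574 nuclear regions, and their median mean signal in the authors' deposited table was 63.6 normalized reads against 11.2. They made up 8.26% of nuclear regions, 18.0% of the listed nuclear bases and 26.5% of the summed nuclear signal. Below a mean of 63.8 normalized reads the authors' deposited table lists every adjusted p as 1, which is read here, as an inference, as a filter on low means. The 5191 start regions at or above this mean (49.9%, against 5.19% of the other regions) are called tested regions. This mean is over both groups together.

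Pigment cell genes and markers of other cell types were used to set the label beside the data. MITF is the transcription factor that directs the melanocyte lineage. The region at its outermost start (chr3:69738359-69741429) had a mean signal of 168 in the authors' deposited table. That of PAX3, a neural crest factor upstream of MITF, had 58.2. The start of DCT, a melanin synthesis enzyme, had 30.0. No region lay within 1 kb of the starts used here for the pigment genes TYR, TYRP1 and MLANA, nor of PTPRC (blood cells) or KRT5 (epithelium), while PDGFRA, a fibroblast marker that melanomas can also express, had 46.2. Of the 11 markers of other cell types, 3 had a strand here. Each gene, MITF included, counts by its outermost start, so an inner start in use would not be seen. Whether an inner start of MITF was open was not examined.

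Accessibility at starts was higher after octanoate at 15 of 5191 tested start regions and lower at 0, at an adjusted p under 0.05 in the authors' deposited table (DESeq2, Benjamini-Hochberg over the whole table). This is 0.289% of the tested start regions, beside 1.02% of all 11185 tested regions and 1.65% of the 5993 other nuclear regions. At an unadjusted p under 0.05, 471 start regions (9.07%) were higher and 0 were lower, beside 14.8% and 0.107% of all tested regions. The median log2 fold change of tested start regions was 0.16 (a fold of 1.12), and 85.7% of them lay above 0, as did 85.7% of the tested regions as a whole. Calls were thus fewer at starts while the share above 0 was the same.

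The start regions differed from the rest mostly at the upper end of the distribution. In the authors' deposited table, their log2 fold changes went from -0.09 at the 5th percentile to 0.42 at the 95th, and those of the other tested regions from -0.12 to 0.62. The median was 0.16 at starts and 0.22 elsewhere, a difference of -0.061. The regions elsewhere include those at starts of genes without a strand. With both ends of these genes counted as starts, an alternative chosen after seeing the data, the difference was -0.085. Start regions had the lower median in 20 of 20 bins of equal mean signal, with a mean difference of -0.069, and in each of the 21 chromosomes with at least 20 tested start regions. Only 28 tested start regions exceeded a 1.5-fold rise and 0 a 2-fold rise, against 400 and 11 of the other regions. The precision was similar, with a median standard error of 0.20 at starts and 0.22 elsewhere. No test of the difference was made, because regions of the same libraries are not replicates.

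**Figure D1:**
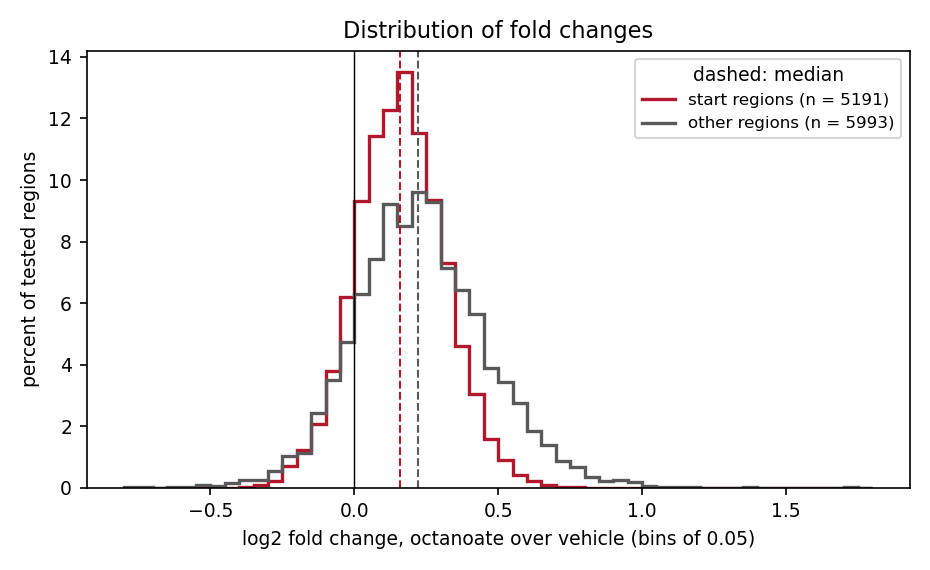
Log2 fold change of octanoate over vehicle (x axis, bins of 0.05) against the percent of tested regions in each bin (y axis), for 5191 start regions and 5993 other nuclear regions, with each median as a dashed line. The start regions form the narrower curve, with a median of 0.16 against 0.22, and few of them lie beyond 0.42, their 95th percentile.

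Relative to the median of the tested nuclear regions (0.19), the start median was -0.027. With this median subtracted from every fold change and p recomputed from the deposited standard errors, 0 start regions had an adjusted p under 0.05, beside 0.0447% of all tested regions that were higher and 0.00894% that were lower. At an unadjusted p under 0.05, 39 centred start regions were higher and 33 lower (0.751% and 0.636%), beside 3.16% and 1.01% of all tested regions. The ratio of log2 fold change to standard error had a standard deviation of 0.83 over tested start regions and 1.06 over the other tested regions. At starts the fold changes thus scattered less than their standard errors state. The smallest centred adjusted p at a start was 0.356, at PEX10. The 15 regions called on the deposited scale had centred log2 fold changes of 0.17 to 0.53, and 14 of them had a centred unadjusted p under 0.05. They were picked by the same fold changes and standard errors, so this is no separate support for them. An offset of the scale and a general rise in accessibility cannot be told apart in this table.

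The 15 regions that rose were strong, and each held the start base. In the authors' deposited table, their mean signals went from 123 to 698 normalized reads with a median of 296.5, and 13 of them were in the top quintile of tested start regions by mean signal (1.25% of that quintile, near the 1.02% of all tested regions). On the log2 scale the rises in the authors' deposited table spanned 0.36 to 0.71 with a median of 0.50, which is a fold of 1.28 to 1.64. The 99 other regions past the threshold had a higher median, 0.81, at a lower median signal of 116.

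**Figure D2:**
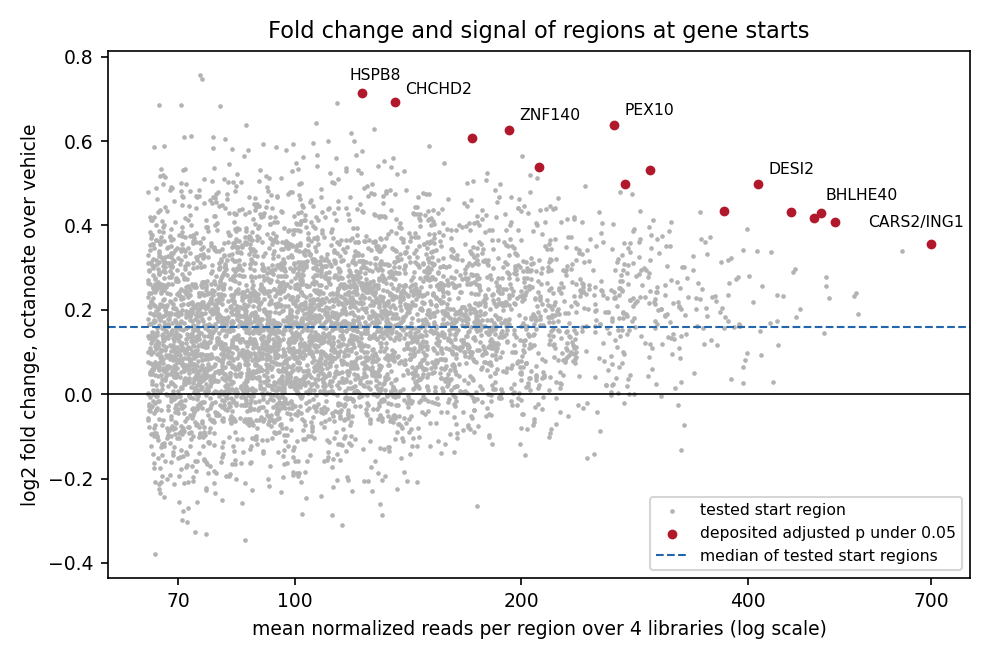
Mean normalized reads per region over the 4 libraries (x axis, log scale) against the log2 fold change of octanoate over vehicle (y axis) for the 5191 tested start regions, with the 15 past the threshold in red and 7 of them named. The red points follow the upper edge of the cloud, from HSPB8 at a mean of 123 and a log2 fold change of 0.71 to CARS2/ING1 at 698 and 0.36.

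The smallest p belonged to PEX10, which encodes a RING-finger protein of the peroxisomal import machinery. Its region (chr1:2411673-2414831) had a mean signal of 266 and rose by 0.64 on the log2 scale (SE 0.14, adjusted p 0.00265) in the authors' deposited table. The 95% interval of its fold from that standard error was 1.29 to 1.88. About 111 kb away, the start region of PANK4 (chr1:2525609-2527313), a member of the pantothenate kinase family named for the first step of coenzyme A synthesis, rose by 0.61 (SE 0.17, adjusted p 0.0305, mean signal 172) in the authors' deposited table. C1orf174 (chr1:3899460-3901743) rose by 0.43 (SE 0.12, adjusted p 0.0305, mean signal 455) in the same deposited table of the authors. These 3 starts lie in the distal short arm of chromosome 1.

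The next 3 regions hold starts of genes whose proteins are known in mitochondria, but no list of mitochondrial genes was examined here, so no theme is drawn from them. CHCHD2, a protein of the intermembrane space that also acts in the nucleus, had a mean signal of 136 and a log2 fold change of 0.69 (chr7:56105527-56106935, SE 0.19, adjusted p 0.0277) in the authors' deposited table. ABCB8, an ABC transporter of the inner membrane, had a mean signal of 274 and a log2 fold change of 0.50 (chr7:151027735-151029283, SE 0.14, adjusted p 0.0312) in the authors' deposited table. One wide region (chr13:110711865-110716556) held the starts of CARS2, the mitochondrial cysteinyl-tRNA synthetase, and ING1, a PHD-finger reader of methylated histone H3 found in a histone deacetylase complex. It had the highest mean signal of all start regions, 698, and a log2 fold change of 0.36 (SE 0.098, adjusted p 0.0332) in the authors' deposited table. Its reads cannot be divided between the pair of genes.

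A pair of chaperone genes was also among the 15. HSPB8, a small heat shock protein, had the largest log2 fold change of the called start regions, 0.71, at the lowest mean signal, 123 (chr12:119178207-119180983, SE 0.19, adjusted p 0.0277 in the authors' deposited table). DNAJC3, a co-chaperone of the endoplasmic reticulum that restrains the kinase PERK, rose by 0.43 at a mean of 372 (chr13:95676048-95678317, SE 0.12, adjusted p 0.0317 in the authors' deposited table). Both belong to the handling of misfolded proteins, but no list of chaperones was examined here, so no theme is drawn from them.

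A pair of transcriptional regulators rose as well. BHLHE40, a basic helix-loop-helix repressor tied to the circadian clock, rose by 0.43 at a mean of 499.9 (chr3:4977027-4980756, SE 0.11, adjusted p 0.0174 in the authors' deposited table). ZNF140, a KRAB zinc finger repressor, rose by 0.63 at a mean of 192 (chr12:133079838-133081331, SE 0.15, adjusted p 0.0139 in the authors' deposited table).

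The remaining members were of mixed function. DESI2, a deSUMOylating isopeptidase, rose by 0.50 at a mean of 412 (chr1:244652310-244654110, SE 0.12, adjusted p 0.00971 in the authors' deposited table). GUK1, the guanylate kinase that turns GMP into GDP, rose by 0.54 at a mean of 211 (chr1:228139667-228140841, SE 0.15, adjusted p 0.0499 in the authors' deposited table), the largest adjusted p among the 15. EOLA1 (chrX:149538997-149541747) rose by 0.53, ANKRD10 (chr13:110913996-110917835), an ankyrin repeat protein, by 0.42, and TMEM18 (chr2:675742-677934), a membrane protein of the nuclear envelope, by 0.41, and their adjusted p values were 0.0208, 0.0190 and 0.0334, all from the authors' deposited table. The next start regions in order of p were those of IBA57 and ZNF257, each listed at 0.0508 as adjusted p by the authors' deposited table.

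**Figure D3:**
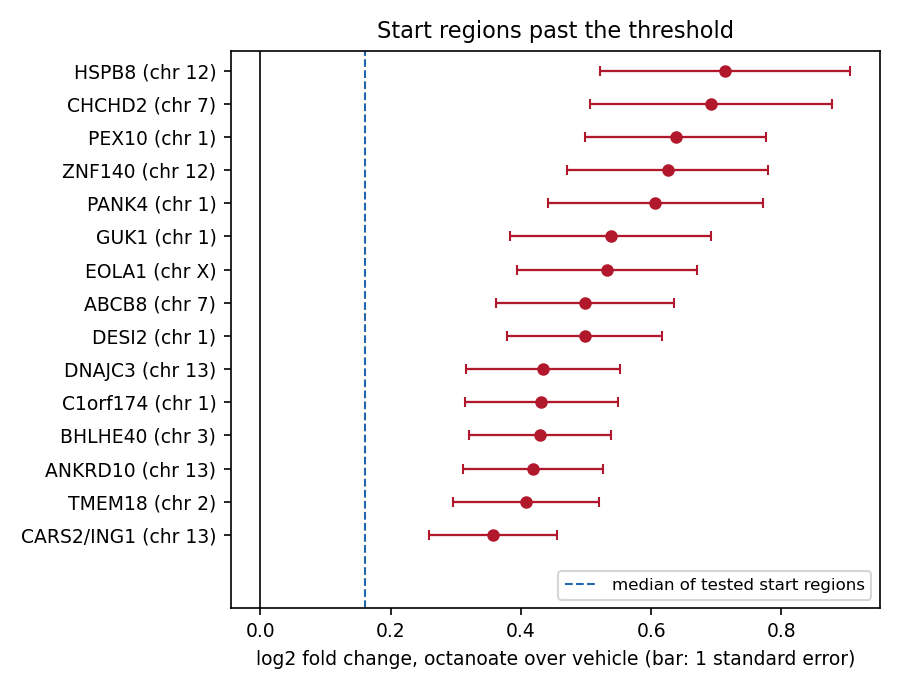
Log2 fold change of octanoate over vehicle (x axis) with 1 standard error as given by the authors, for the 15 start regions past the threshold, named by gene and chromosome. All lie to the right of the dashed line at 0.16, the median of tested start regions, and run from 0.36 at CARS2/ING1 to 0.71 at HSPB8.

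On the deposited scale, no start region was lower at an unadjusted p under 0.05, while 33 were on the centred scale. Of these, CDH2, the gene of N-cadherin, had the smallest centred p (0.00506, adjusted 0.644), and the authors' deposited table lists its log2 fold change at -0.27, which is -0.45 centred, and it was named after its value was seen. The lowest log2 fold changes of tested start regions in the authors' deposited table were -0.38 at CWC22, a splicing factor (SE 0.26, adjusted p 0.497), and -0.35 near HDAC7, a class IIa histone deacetylase (SE 0.23, adjusted p 0.474). SPATS2, MAP3K7, the kinase TAK1, and DDAH1, an enzyme that breaks down methylated arginines, had -0.33, -0.33 and -0.31 in the authors' deposited table, with adjusted p of 0.527, 0.542 and 0.462. Each of these 5 lay within 2 standard errors of 0, at means of 65.2 to 115. Of the 5 start regions with the highest mean signals, CARS2/ING1 was past the threshold and the others were not. After CARS2/ING1, the highest mean signals were 639 at ZNF672, 559 at SMARCA2, an ATPase of chromatin remodelling complexes, 556 at G3BP1, a stress granule protein, and 552 at CEP170/SDCCAG8, with log2 fold changes of 0.34, 0.19, 0.24 and 0.23 in the authors' deposited table. Of these, ZNF672 came nearest the threshold, with an adjusted p of 0.0512.

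Strength per base went with the fold change among start regions. Sorted into quintiles by normalized reads per kb, the tested start regions had median log2 fold changes of 0.11, 0.12, 0.16, 0.18 and 0.23 from the thinnest to the densest quintile, and 12 of the 15 calls fell in the densest (1.16% of its regions, near the 1.02% of all tested regions). At an unadjusted p under 0.05, 2.69% of the thinnest quintile and 23.4% of the densest were higher, beside 14.8% of all tested regions. Dense regions have more reads and smaller standard errors, so these shares also carry the precision. Wider start regions had lower fold changes, with medians of 0.19 in the narrowest quintile and 0.14 in the widest. Across the 5191 tested start regions, log2 fold change had a Spearman correlation of 0.28 with reads per kb, 0.13 with mean signal and -0.13 with width. These regions share the same 4 libraries, so the correlations describe this table only. At equal density the start regions still had the lower median in 20 of 20 bins, by 0.039 to 0.095.

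**Figure D4:**
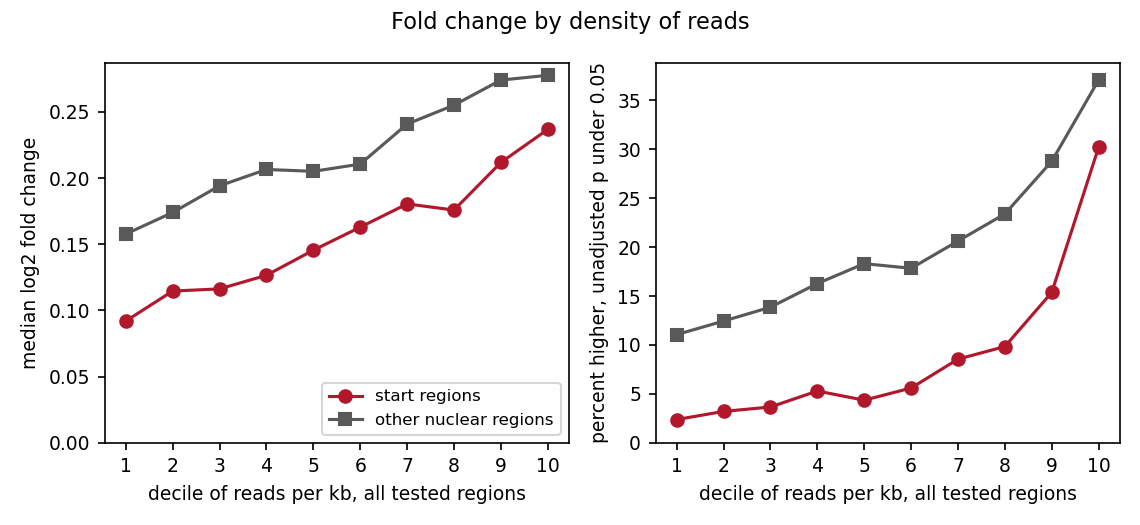
Deciles of normalized reads per kb over all tested regions (x axis) against the median log2 fold change (left) and the percent higher at an unadjusted p under 0.05 (right), for start regions in red and other nuclear regions in grey. Medians are higher in the densest than in the thinnest decile of both sets, 0.24 against 0.092 for start regions, and the red line lies under the grey one in all 10 deciles of each panel.

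Signal differed with position within the window, while the median fold changes lay close together. Of the 10411 start regions, 9211 held the start base, with a median mean signal of 69.4, and 54.4% of them were tested. The 532 regions more than 500 bp away were weak, and 11.1% of them were tested. The medians of log2 fold change in tested regions were 0.16 for both, and 9.17% and 15.3% were higher at an unadjusted p under 0.05, beside 14.8% of all tested regions. In between, this share was 2.78% of 72 tested regions up to 250 bp away and 1.89% of the 53 next ones, up to 500 bp. Just outside the window, 1524 regions between 1 kb and 2 kb away had a median mean signal of 11.8, and the 85 tested ones had a median log2 fold change of 0.16. Regions shared by 2 genes that point away from each other were stronger than single ones, with median mean signals of 82.3 and 60.8 over 767 and 9215 regions, and their tested members had the same median log2 fold change, 0.16. Regions with 3 or 4 starts had 0.094 over 27 tested regions, 18.5% of them higher at that p.

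Base composition separated open from closed starts and had little to do with the fold change. Among the 13819 genes whose 250 upstream bases were at hand, the median G and C content was 66.0% where the start lay in a tested region, 64.8% in an untested region and 51.2% where no region lay within 1 kb. The observed over expected CpG ratio was 0.852, 0.805 and 0.255 in these groups. Within tested start regions, the lowest and highest quintiles by G and C content had median log2 fold changes of 0.15 and 0.17, and by CpG ratio 0.17 and 0.15. The quintile poorest in CpG held 7 of the 14 calls with a sequence at hand (0.757% of its 925 regions, beside 0.289% of tested start regions and 1.02% of all tested regions), among them PEX10 and HSPB8 of the printed stretches.

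Motif letters differed between open and closed starts, while the median fold changes with and without them lay close together. The GC box (GGGCGG) was in 73.8% of upstream stretches with a tested region, 24.2% of those with no region and 56.0% of all, and the ETS core (CCGGAAG) in 16.9%, 2.64% and 12.1%. The TATA letters (TATAAA) ran the other way, at 4.30%, 20.1% and 9.63%. Tested regions with and without a CCAAT box, which is in 35.2% of all stretches, had median log2 fold changes of 0.17 and 0.15. For the AP-1 letters (TGANTCA), in 5.04% of all stretches, these medians were 0.19 over 124 regions and 0.16 over the rest, and for the nuclear receptor letters (AGGTCA), in 10.4%, they were 0.15 and 0.16. All letters were searched on both strands of the 250 bases, and matches of different motifs may share bases. A match is a description of the letters and no evidence of binding.

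Start regions near chromosome ends had higher fold changes. The 483 tested start regions within 5 Mb of the outermost listed region of a chromosome had 0.26 as their median log2 fold change, against 0.15 for the remaining 4708. They held 9 of the 15 calls, which is 1.86% of them beside 0.127% elsewhere and 1.02% of all tested regions. Other nuclear regions had medians of 0.34 and 0.21 under the same split, and 6.29% and 1.18% of the tested ones were called. Starts thus lay below the rest in both places, in median and in share called. Values around several called starts were high as well. Around PEX10, 11 other tested start regions lay within 1 Mb, among them the called PANK4, with a median of 0.44 and 5 at an unadjusted p under 0.05, beside 9.07% of tested start regions and 14.8% of all tested regions. For C1orf174 the 6 neighbours had a median of 0.52, from 0.35 to 0.59, and for GUK1 the 10 neighbours had 0.45. By contrast the 5 neighbours of CHCHD2 had a median of 0.19 and 0 of them reached an unadjusted p under 0.05. The CARS2/ING1 region lay 197 kb from that of ANKRD10. Over 5169 pairs of neighbouring tested start regions, a median of 225700 bp apart, the Pearson correlation of log2 fold changes was 0.35, across regions that share the libraries.

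By chromosome, the median of tested start regions was above 0 in all 21 chromosomes with at least 20 of them. It was lowest on chromosomes 18 (0.076, 94 regions), 21 (0.083, 29 regions) and 4 (0.10, 266 regions) and highest on chromosomes 19 (0.26, 180 regions) and 15 (0.23, 164 regions). On chromosome 19, 20.6% of tested start regions were higher at an unadjusted p under 0.05, against 2.13% on chromosome 18, beside 14.8% of all tested regions. Chromosome 1 held 5 of the 15 calls among 678 tested start regions (0.737%) and chromosome 13 held 3 among 129 (2.33%), beside 0.289% of tested start regions and 1.02% of all tested regions.

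The other tested regions of chromosome 19, outside the windows of the starts used here, also had the highest median of these chromosomes, 0.33. Among its starts, those of zinc finger genes had the higher values. ZNF genes encode C2H2 zinc finger proteins, many of them KRAB repressors that bind and silence transposable elements, and large clusters of them lie on this chromosome. Their 155 tested start regions had a median log2 fold change of 0.27, with quartiles of 0.17 and 0.43, beside 0.16 for the 5036 other tested start regions. At an unadjusted p under 0.05, 44 of them (28.4%) were higher, beside 8.48% of the other start regions and 14.8% of all tested regions, and 1, ZNF140, passed the adjusted threshold. The 51 on chromosome 19 had a median of 0.44 and 25 of them (49.0%) were higher at an unadjusted p under 0.05, while the 104 elsewhere had 0.22 and 19 (18.3%), near the 14.8% of all tested regions. Other genes on chromosome 19 had 0.19 over 129 tested regions, and other genes elsewhere 0.16 over 4907. The ZNF starts had the higher median in each quintile of reads per kb, from 0.17 against 0.11 in the thinnest to 0.35 against 0.22 in the densest. Away from chromosome ends by over 5 Mb, their median was 0.24 over 118 regions, with 22.9% higher at an unadjusted p under 0.05, and within 5 Mb it was 0.35 over 37 regions, with 45.9%.

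The 2 highest of the 155 ZNF values were named after they were seen, and the lowest was -0.19. ZNF492 (chr19:22633924-22634934) had a mean signal of 75.3 and a log2 fold change of 0.75 (SE 0.25, adjusted p 0.0932) in the authors' deposited table. ZNF257, in the same stretch of the chromosome (chr19:22051695-22053347), had 114 and 0.69 (SE 0.20, adjusted p 0.0508) in the authors' deposited table. ZNF genes are close copies of each other in places, and how reads with several placements were handled is not given in the sources used here, so single ZNF values are uncertain.

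Replication-dependent histone genes, which are expressed in S phase and lie mostly in clusters on chromosome 6, had the lowest list median. Their 14 tested start regions had a median log2 fold change of -0.0071, 6 lay above 0, and 1, at H2AC25/H2BC26, reached an unadjusted p under 0.05 (0.0198, log2 fold change 0.37, adjusted p 0.230 in the authors' deposited table). The 10 on chromosome 6 had a median of -0.018, and the other tested starts of that chromosome had 0.11 over 268 regions. The tested histone regions were thin, with a median of 37.7 normalized reads per kb against 42.8 in the thinnest quintile of tested start regions, whose median log2 fold change was 0.11, and the part of density in their low median was not tested. Cell cycle and replication genes had a median of 0.095 over 17 tested regions, with 11 above 0 (64.7%, beside 85.7% of all tested regions) and 0 at an unadjusted p under 0.05 (beside 14.8%). Their quartiles, -0.05 and 0.13, overlapped those of all tested start regions, 0.056 and 0.26. The highest mean signals of this list were at E2F3, CDK6, CDS2/PCNA and MKI67, a marker of dividing cells, with 0.17, 0.021, -0.011 and 0.29. CDKN1B, the inhibitor p27, had the lowest value, -0.21, and CCNB1, the mitotic cyclin B1, had -0.11, all in the authors' deposited table.

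The gene lists hold both genes chosen by a fixed rule (an unadjusted p under 0.05 or the highest mean signal) and genes named after their values were seen, namely CDKN1B, CCNB1, ECHS1, ACAA2, PPARGC1A, PPARA, PPARG and SPRY4, as was IBA57. Medians are on the deposited scale. With the tested median subtracted, and among the lists with at least 5 tested regions, the medians of PPAR, lipid synthesis, acetylation, stress, cell cycle, housekeeping, ribosomal and respiratory genes turn negative (-0.045, -0.086, -0.0027, -0.080, -0.092, -0.016, -0.028 and -0.0047), while those of fatty acid oxidation (0.057), immediate early (0.038), NF-kB and antigen presentation (0.024), glycolysis (0.0067) and ZNF genes (0.081) stay above 0, and that of histone genes, already negative, is -0.19.

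Genes that handle fatty acids were examined because octanoate is one. Medium-chain fatty acids are activated to acyl-CoA and enter beta-oxidation with little need for the carnitine shuttle that long chains use. Of 38 genes with a strand, 32 had a start region, and the 18 tested regions had a median log2 fold change of 0.24, with 17 above 0 (94.4%, beside 85.7% of all tested regions) and 0 past the adjusted threshold. Of the 18, 1 was higher at an unadjusted p under 0.05 (5.56%), a smaller share than the 14.8% of all tested regions. This was CROT, a peroxisomal enzyme that moves medium-chain acyl groups onto carnitine (unadjusted p 0.0314), with a mean signal of 197 and a log2 fold change of 0.33 (SE 0.15, adjusted p 0.278) in the authors' deposited table. ACADM, the medium-chain acyl-CoA dehydrogenase, had 0.19 (SE 0.17, adjusted p 0.623) in a region it shares with SLC44A5, and ETFB, which takes up the electrons of these dehydrogenases, had 0.28 (SE 0.16, adjusted p 0.399), both in the authors' deposited table. ECHS1, the short-chain enoyl-CoA hydratase, had the highest value of the list, 0.48 (SE 0.25, adjusted p 0.338), and ACAA2, the mitochondrial thiolase, the lowest, -0.17 (SE 0.25, adjusted p 0.787), in the authors' deposited table.

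PPARs are nuclear receptors that fatty acids activate as heterodimers with RXR. The list of these receptors, their partners and classic targets had 6 tested start regions, whose median on the log2 scale was 0.14, and 0 reached an unadjusted p under 0.05, beside 14.8% of all tested regions that were higher. PPARGC1B, a coactivator related to PPARGC1A, had 0.18 and RXRG, one of the RXR partners, 0.21 at mean signals of 119 and 97.9 in the authors' deposited table. PDK4, which blocks pyruvate dehydrogenase, had 0.16 (SE 0.22, adjusted p 0.766), and PLIN2, the lipid droplet coat protein, -0.047 (SE 0.16, adjusted p 0.919), in the authors' deposited table. PPARGC1A, the coactivator of mitochondrial genes, had 0.12 there (SE 0.24, adjusted p 0.851), at its outermost start (chr4:24472454-24473736). An inner start of this gene in use would not be seen. The starts of PPARA and PPARG, with mean signals of 22.7 and 49.2, were below the filter. Fatty acid and cholesterol synthesis genes had a median of 0.10 over 12 tested regions. Of these, 1 (8.33%, beside 14.8% of all tested regions) was higher at an unadjusted p under 0.05, that of HMGCS1, an enzyme of the mevalonate pathway (unadjusted p 0.0350, log2 fold change 0.30, adjusted p 0.292 in the authors' deposited table).

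The list of acetyltransferases, deacetylases, sirtuins and bromodomain readers also holds ACSS2, an acetyl-CoA synthetase counted with the fatty acid genes too. The 17 tested start regions of this list, not all at genes that act on histones, had a median of 0.18 on the log2 scale. At an unadjusted p under 0.05, 3 were higher (17.6%), beside 9.07% of tested start regions and 14.8% of all tested regions, a share near the latter, and 0 passed the adjusted threshold. HDAC4, a class IIa deacetylase, came nearest, with a mean of 170, a log2 fold change of 0.50 (SE 0.16, adjusted p 0.0885) in the authors' deposited table. HDAC6, a mostly cytoplasmic deacetylase of tubulin, had 0.30 (adjusted p 0.288) and SIRT4, a mitochondrial sirtuin, 0.35 (adjusted p 0.290) in the authors' deposited table. The list also holds the low value near HDAC7.

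Immediate early and AP-1 genes, which respond within minutes to growth signals, had strong and wide start regions, with a median mean signal of 158 and a median width of 3358 bp over 21 regions. All 16 tested ones lay above 0, with a median log2 fold change of 0.22, and 4 were higher at an unadjusted p under 0.05, but 0 passed the adjusted threshold. Of all tested regions, 85.7% lay above 0 and 14.8% were higher at that p. IER5 had a mean of 356 and a log2 fold change of 0.37 (SE 0.12, adjusted p 0.0952), NR4A3, an orphan nuclear receptor, 462 and 0.30 (SE 0.11, adjusted p 0.132), JUN 508 and 0.28 (SE 0.10, adjusted p 0.153), and FOS 153 and 0.34 (SE 0.17, adjusted p 0.332), in the authors' deposited table. DUSP6, a phosphatase that turns off ERK, had 437 and 0.17 (adjusted p 0.512), and SPRY4, another brake on this pathway, 204 and 0.018 (adjusted p 0.970), in the authors' deposited table. The ATF4 and NRF2 stress genes had a median of 0.11 over 13 tested regions, all above 0, and 0 at an unadjusted p under 0.05.

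Energy and housekeeping genes lay near the median of all starts. Glycolysis and pyruvate entry genes had a median log2 fold change of 0.19 over 17 tested regions. In the authors' deposited table, GPI, the phosphoglucose isomerase, had 0.64 (SE 0.23, adjusted p 0.121) and MPC1, a subunit of the mitochondrial pyruvate carrier, 0.46 (SE 0.15, adjusted p 0.0932), while GAPDH had -0.0027 (SE 0.13, adjusted p 0.995). Nuclear genes of the respiratory complexes had 0.18 over 31 tested regions, and 2 of them (6.45%), at NDUFS6 and SDHB, reached an unadjusted p under 0.05, beside 14.8% of all tested regions that were higher. Cytosolic ribosomal protein genes had 0.16 over 29, and housekeeping genes 0.17 over 17. Each of these lists had 0 regions past the adjusted threshold. Of the lists tied to melanoma state, the pigment cell genes had 1 tested start region, at the outermost start of MITF, with 0.12 (SE 0.17, adjusted p 0.772). The undifferentiated melanoma genes had 4, with a median of 0.25. NF-kB, cytokine and antigen presentation genes had 5, with a median of 0.21, and HOX genes had 2.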

How the data were processed

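ATAC-seq had been done on A375 cells with 2 vehicle and 2 octanoate libraries. The authors' deposited table gives per region the mean signal (normalized read count over all 4 libraries), the log2 fold change with its standard error, the test statistic (a score), the p-value and the adjusted p-value, with no value per library. Per the submitters' processing notes, which give no role or order, the tools were Trim Galore, cutadapt, FastQC, Bowtie2, Picard, MACS2, featureCounts, DESeq2 and bedtools 2.29.1, with build hg38. Whether read ends were shifted for Tn5, the handling of reads with several placements and the scaling are not given in the sources used here.

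The 11185 regions with a mean of 63.8 or more count as tested. Below it the deposited adjusted p-value is listed as 1, and reading this as the authors' filter is an inference: the Benjamini-Hochberg adjustment over the 11185 alone gave their deposited values. Region starts were raised by 1 base to count from 1. Gene ends and strands came from RefSeq (GRCh38.p14). The 4195 protein-coding genes without a strand gave no starts, so regions at their starts count among the other regions. A start region lies within 1 kb of a start. Centred values subtract the tested median, with p from the normal distribution and the deposited standard error. This step was run on simulated data whose changes were far larger than any at a start here. That run therefore cannot tell how often changes of the size seen here would be found.

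Genes were named by a rule: all start regions past an adjusted p of 0.05, the 5 lowest in log2 fold change, the 5 highest in mean signal, in each list those at an unadjusted p under 0.05 and otherwise up to 4 of the highest mean signal, and the pigment and other cell type markers. Of the 44 ZNF regions at that p only a few are named, ZNF492 and ZNF257 after their values were seen. The members and lists were chosen with earlier results of these data known. Alternatives in threshold, adjustment, centring, window and chromosomes were computed. Python 3.11.15, pandas 2.3.3, numpy 2.4.6, scipy 1.17.1 and matplotlib 3.10.9 were used.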

Additional observations from a re-analysis of the deposited data

How the results depend on the processing

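The count of 15 start regions past the threshold was 2 at an adjusted p under 0.01, 60 at 0.1, 0 with a doubling also required, and 1 (PEX10) with the adjustment over all nuclear regions. It was 0 with the fold changes centred on the tested median and 0 when centred on the median of all nuclear regions. It was 6 without regions within 5 Mb of chromosome ends, an alternative chosen after seeing the data. Windows of 500 bp and 2 kb, or the start base inside the region, gave the same 15 regions. Both ends of the genes without a strand gave 19 and using every listed promoter start gave 17, each holding the 15; both were chosen after seeing the data. Autosomes alone gave 14. The median log2 fold change of tested start regions, 0.16, was -0.027 when centred on the tested median, by construction of the subtraction, and 0.14 to 0.16 under the 9 other alternatives run. The difference from other regions, -0.061, lay between -0.11 and -0.059 under its 8 alternatives. Among lists with at least 5 tested regions, centring turned 8 medians negative: PPAR -0.045, lipid synthesis -0.086, acetylation -0.0027, stress -0.080, cell cycle -0.092, housekeeping -0.016, ribosomal -0.028 and respiratory -0.0047. The pigment cell list (1 tested region) and the HOX list (2) also turned negative, at -0.067 and -0.066. No paired analysis was possible because the deposited table holds no value per library, and for the same reason no replicate could be left out and no count test was run. The precision of single starts is limited: at the median standard error of 0.20, which holds counting error and the spread between libraries together, a tested start region needs a log2 fold change of 0.40 for an unadjusted p of 0.05.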

Other observations

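Start regions were also grouped by the letters that open the gene symbol, as a description chosen after seeing the data. There were 31 such groups with at least 15 tested start regions, and the median log2 fold change was above 0 in each of them on the deposited scale. The lowest medians belonged to CDK genes, cyclin-dependent kinases (0.064 over 15 regions), KLHL genes, many of them adaptors of ubiquitin ligases (0.065 over 15), and EIF genes, translation initiation factors (0.086 over 25). After ZNF genes, at 0.27 over 155 regions, the highest were SH (0.22 over 17) and PPP genes, phosphatase subunits (0.21 over 28). At an unadjusted p under 0.05, 6 of the 28 PPP regions (21.4%) were higher, beside 14.8% of all tested regions, and 0 passed the adjusted threshold. RNF genes, RING-finger proteins, had 0.13 over 30 regions and 0 at an unadjusted p under 0.05. SLC genes, membrane transporters, had 0.18 over 95 regions, and TMEM genes 0.17 over 86.

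The highest log2 fold change of any tested start region, 0.76, belonged to SNAP47, at a mean signal of 74.9 with a standard error of 0.25 in the authors' deposited table, and it did not pass the adjusted threshold. SNAP47, a SNARE protein of membrane fusion, lies within 1 Mb of GUK1.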
